A study of Mus musculus with 8 samples.

Results

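The 35 genes described here encode the enzymes of glycolysis, the carriers of glucose and lactate, the oxygen-sensing transcription factors and hydroxylases, and genes that hypoxia-inducible factor (HIF) is known to switch on. They were picked by gene symbol, and each matched 1 of the 20793 rows of the expression table. All 35 passed the filter on low values, at least 1 FPKM in 2 or more of the 8 libraries, as did 11968 rows in all. FPKM scales a gene's fragment count by the length of its transcript and by the number of fragments in the library.

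The libraries came from brain neural progenitor cells of mice of the strain label FvB/C57BL/6. The 4 libraries labelled differentiating were from cells moved for 5 days into neurobasal medium supplemented with B27, and they were named FUBP1-D (FUBP1-targeted), CIC-D (CIC-targeted), 7 and GFP-D (both non-targeted, NT). The 4 libraries labelled proliferating were from cells in N2 medium with EGF and bFGF at 20 ng/ml, and they were named FUBP1, CIC, TRC and GFP, of which TRC and GFP were NT. The treatment protocol, repeated for all 8 libraries, describes lentiviral FUBP1 hairpins and 3 days of puromycin, and does not say separately how CIC and NT libraries were treated. What the NT names stand for is not spelled out in the labels. FUBP1 binds single-stranded nucleic acids and regulates transcription and splicing. CIC, capicua, represses transcription. Each targeted gene had 1 library per state. The labels do not tell whether the NT libraries were separate cultures, so p-values measure only the spread between these 8 libraries, some of which may be technical.

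Glycolysis turns glucose into pyruvate, which either enters mitochondria through pyruvate dehydrogenase or is reduced to lactate by lactate dehydrogenase and exported. Most steps can be run by several isozymes encoded by different genes, and dividing progenitors are known to lean on glycolysis, while astrocytes export lactate. When oxygen is low, the prolyl hydroxylases of the Egln family stop marking HIF alpha subunits for destruction, and HIF then binds a short DNA core next to many glycolytic genes and raises their transcription. HIF alpha is controlled mainly at the protein level, which RNA does not show.

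The DNA just before the start sites of 5 genes is shown because these genes changed between states in opposite directions while all of them hold the core letters of the HIF binding element. The sequences are from RefSeq (build GRCm38.p6), 250 bases upstream of the start, in the direction of transcription, and capitals mark every ACGTG or GCGTG on either strand, so that CACGTG, its own reverse complement, counts once on each strand. Ldha and Pgk1 were lower, and Ldhb, Slc16a1 and Pdk4 higher, in differentiating cells. For Ldha, which has 2 listed starts, the upstream one is printed.
Ldha (chr7:46845554-46845803, plus strand): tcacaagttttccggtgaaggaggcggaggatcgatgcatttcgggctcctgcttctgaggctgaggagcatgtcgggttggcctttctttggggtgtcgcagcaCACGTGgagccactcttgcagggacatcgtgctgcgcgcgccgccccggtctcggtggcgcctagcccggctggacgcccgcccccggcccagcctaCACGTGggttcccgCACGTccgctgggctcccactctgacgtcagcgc
Pgk1 (chrX:106186850-106187099, plus strand): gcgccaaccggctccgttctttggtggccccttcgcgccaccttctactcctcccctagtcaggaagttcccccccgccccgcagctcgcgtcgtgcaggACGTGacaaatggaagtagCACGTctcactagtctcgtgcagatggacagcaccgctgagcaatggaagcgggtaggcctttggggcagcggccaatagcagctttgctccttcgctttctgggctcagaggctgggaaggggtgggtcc
Ldhb (chr6:142507958-142508207, minus strand): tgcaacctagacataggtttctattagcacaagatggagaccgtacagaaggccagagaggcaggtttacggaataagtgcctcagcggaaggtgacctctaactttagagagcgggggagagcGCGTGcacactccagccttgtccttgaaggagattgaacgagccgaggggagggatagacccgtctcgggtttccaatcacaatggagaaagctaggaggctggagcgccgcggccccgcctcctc
Slc16a1 (chr3:104638414-104638663, plus strand): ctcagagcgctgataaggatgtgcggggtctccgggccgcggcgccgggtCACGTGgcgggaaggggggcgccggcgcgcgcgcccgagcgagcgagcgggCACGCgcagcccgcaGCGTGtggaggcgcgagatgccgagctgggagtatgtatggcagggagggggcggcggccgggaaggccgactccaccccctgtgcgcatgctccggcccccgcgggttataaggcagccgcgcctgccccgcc
Pdk4 (chr6:5496279-5496528, minus strand): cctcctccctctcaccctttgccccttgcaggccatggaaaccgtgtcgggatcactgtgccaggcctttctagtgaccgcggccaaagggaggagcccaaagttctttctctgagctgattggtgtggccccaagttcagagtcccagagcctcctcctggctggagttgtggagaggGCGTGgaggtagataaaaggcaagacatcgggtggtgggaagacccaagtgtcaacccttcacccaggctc
Of the 35 genes, 32 had an entry in the promoter table, and 29 of these (90.6%) held at least 1 such core before a listed start. The same letters stood before a start of 63.1% of the 9006 symbols past the filter that had an entry, and in 38.6% of all 32851 promoters. The Ldha and Slc16a1 sequences hold the full CACGTG, at 2 places in Ldha and 1 in Slc16a1, and the Ldhb and Pdk4 sequences hold a single GCGTG each. A match is a run of letters and not a measured binding site, and genes with the core moved in both directions here.

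Summed over all rows, FPKM came to between 426984 and 448571 per library in the differentiating state and between 505977 and 541608 in the proliferating state, and the number of fragments behind them is unknown. Proliferation genes marked the states: all 12 of a list that holds Mki67 and Pcna were called lower in differentiating cells. They summed to 135 (FUBP1-D), 72.2 (CIC-D), 78.9 (7) and 70.9 FPKM (GFP-D) in differentiating cells. In proliferating cells the sums were 1519 (FUBP1), 805 (CIC), 1495 (TRC) and 716 FPKM (GFP). FUBP1-D was thus the highest differentiating library for this list. Of 10 astrocyte markers 7 were called higher and none lower, with sums of 1076 to 1536 FPKM in differentiating and 263 to 348 FPKM in proliferating cells. Of 9 tested progenitor markers 3 were called lower (Fabp7, Hes1 and Olig2, by -2.82, -2.02 and -1.45 in log2) and none higher. The other 6 were not called, and the median log2 difference of the 9 was 0.40. All 10 listed summed to between 2997 and 4710 FPKM in differentiating and between 3744 and 5374 FPKM in proliferating cells. Vim alone averaged 3072 FPKM in differentiating and 2354 FPKM in proliferating cells. Neuron markers summed to 43.9 to 73.3 FPKM in differentiating and 65.5 to 570.4 FPKM in proliferating cells, where Nefl alone reached 537 FPKM in TRC and Gap43 250 FPKM in CIC. Of 6 tested neuron markers 1 was called higher (Tubb3), 1 lower (Gap43) and 4 were not called. Oligodendrocyte markers summed to 121 to 284 FPKM in differentiating and 53.7 to 111 FPKM in proliferating cells. Of 5 tested, 2 were called higher and none lower. Markers of microglia, endothelium and mesenchyme (10 each) summed to at most 7.74, 5.25 and 6.59 FPKM in any library, with C1qa, C1qb and Cldn5 at 0 throughout. In bulk RNA, fewer cells of a type and less RNA per cell cannot be told apart. The part of these shifts in the results below was not tested.

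**Figure D1:**
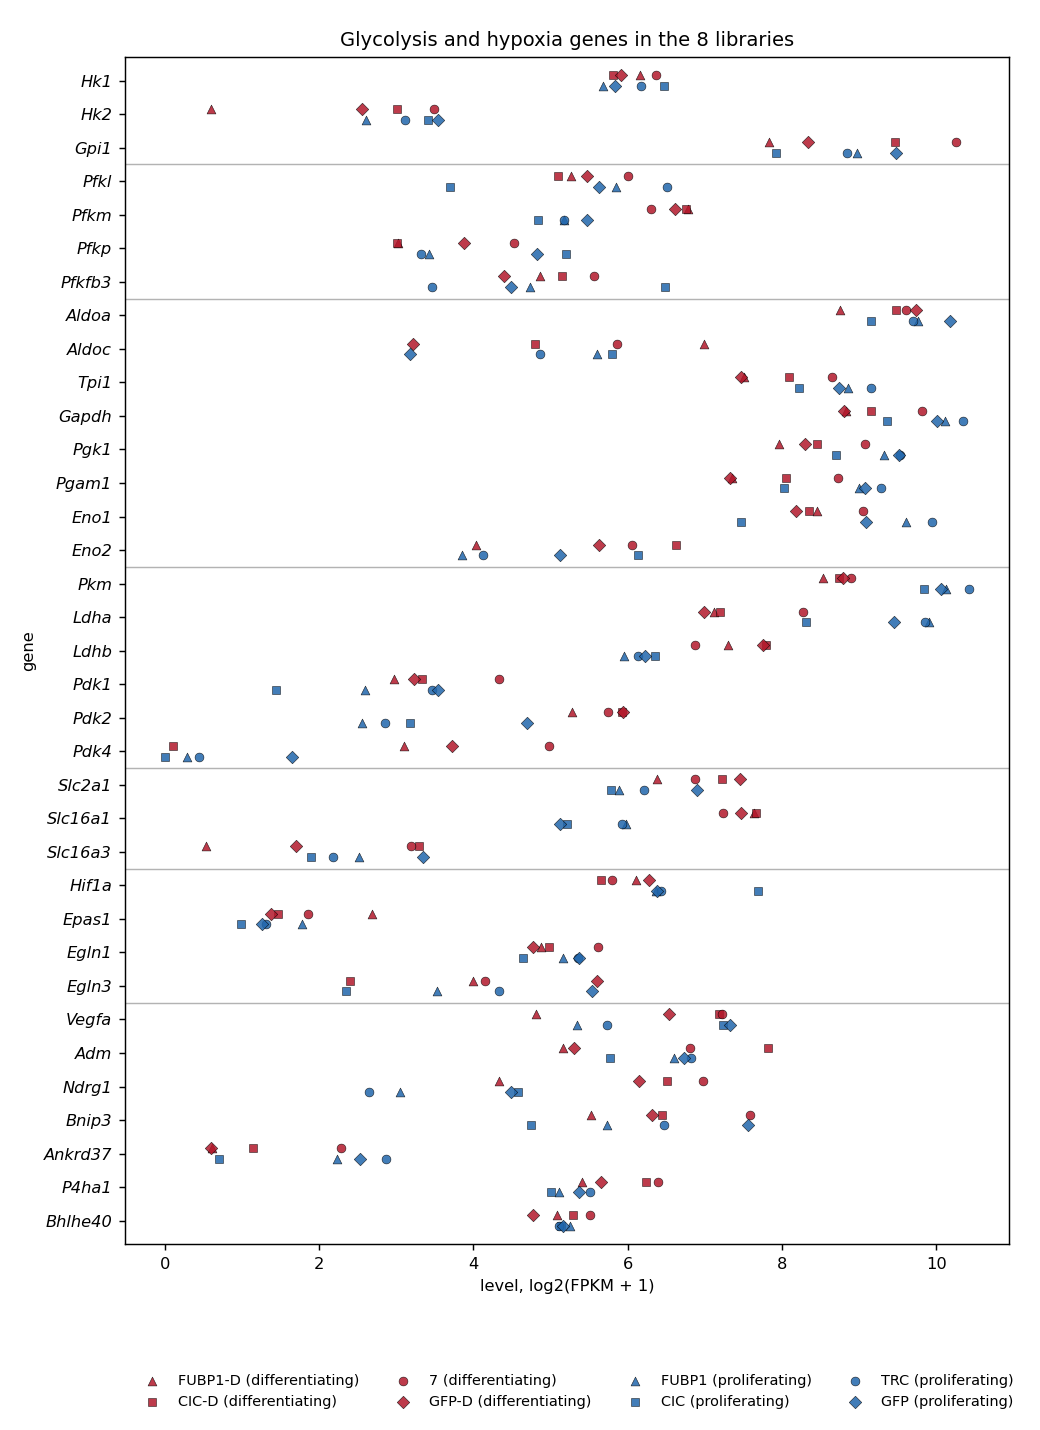
Level of each of the 35 genes as log2(FPKM + 1), 1 point per library, with differentiating libraries in red and proliferating libraries in blue; horizontal lines separate groups of function. Red and blue points are apart for Pfkm, Pkm, Ldha, Ldhb, Pdk2, Slc16a1 and Hif1a, and mixed for most other genes.

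Between states, genes of the pathway moved in both directions. Of the 35 genes, 7 rose (Pfkm, Ldhb, Pdk2, Pdk4, Slc2a1, Slc16a1 and Ndrg1) and 3 fell (Pkm, Ldha and Pgk1) in differentiating cells, by limma on log2(FPKM + 1) with Benjamini-Hochberg adjustment over all 11968 rows and a threshold of 0.05. Over all rows 21.2% rose and 17.7% fell, 38.8% together, so the 28.6% of the 35 genes that changed were not a larger share than in the transcriptome. The median log2 difference of the 35 genes was 0.03, beside 0.09 over all rows. In 4 of the 35 genes every differentiating library lay above every proliferating one (20.1% of all rows), and in 3 every one lay below (17.8%). Of the 10 called genes, 6 kept the call under all 17 alternatives: Pfkm, Ldha, Ldhb, Pdk2, Slc16a1 and Ndrg1. The 17 are not all separate, since leaving out either library of a targeted gene gave the same differences between states. The split of 7 higher and 3 lower became 8 and 1 with quantile normalization and 6 and 6 with scaling by the median of ratios, and without library 7 it was 7 and 6. In a comparison of the NT libraries alone within the fit of group means, no gene of the 35 was called (limma, 0 of 35, with 1.46% of all rows called), and 9 of the 35 genes and 26.1% of all rows had an unadjusted p under 0.05.

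**Figure D2:**
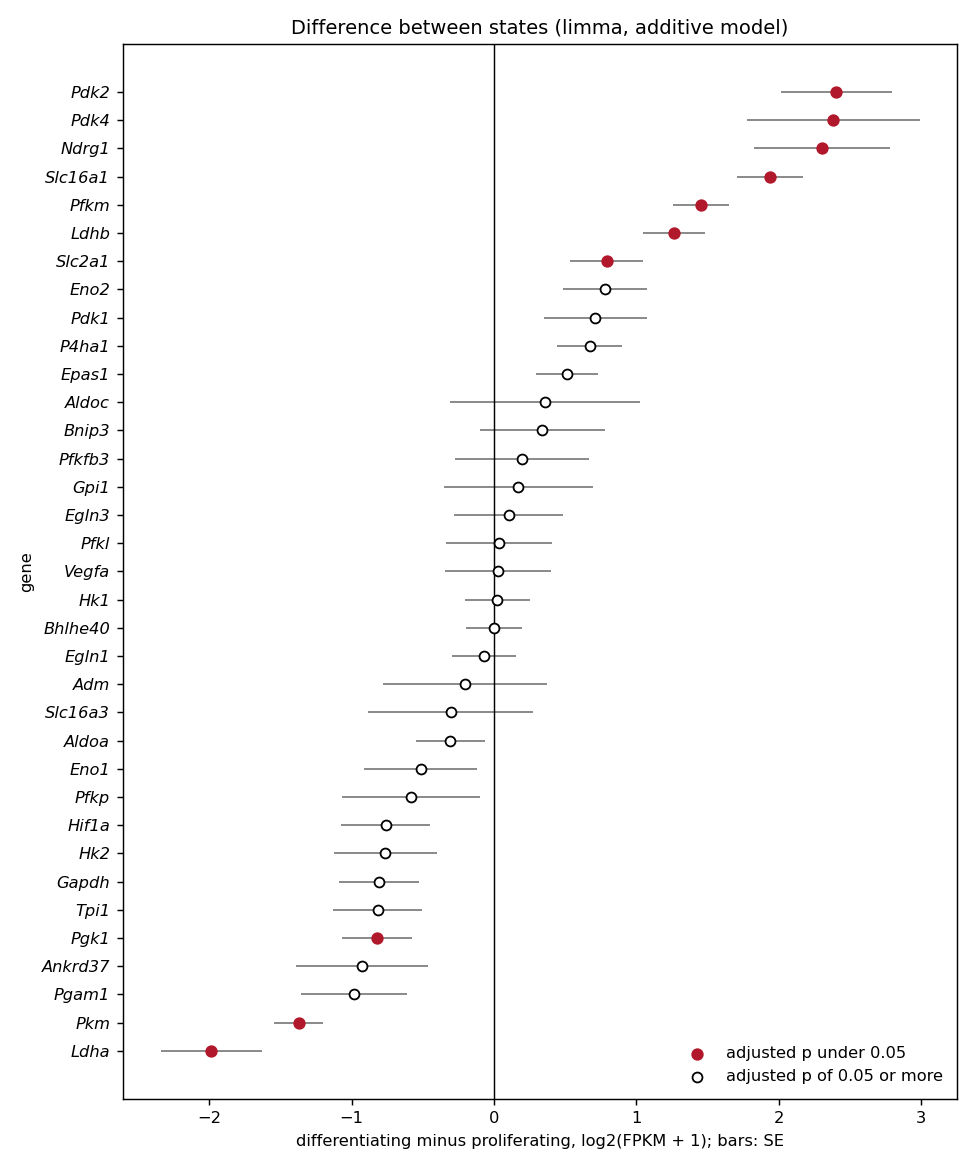
Difference between the 4 differentiating and the 4 proliferating libraries for each gene on the log2(FPKM + 1) scale, from the additive model, with bars of 1 SE. Filled points passed the threshold of 0.05 on the adjusted p, from Ldha at -1.99 to Pdk2 at 2.40.

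At the entry of the pathway, no change was called in any of the 3 genes. Hk1, the hexokinase most cells use, ranged over 50.3 to 87.6 FPKM and averaged 66.4 ± 11.8 FPKM in differentiating cells and 66.2 ± 16.7 FPKM in proliferating cells (SD, n = 4 each, spanning all arms, as for every state mean below). Hk2, an inducible hexokinase, had 0.513 (FUBP1-D), 7.03 (CIC-D), 10.2 (7) and 4.87 FPKM (GFP-D) in differentiating cells, against 5.11 (FUBP1), 9.68 (CIC), 7.68 (TRC) and 10.7 FPKM (GFP) in proliferating cells. FUBP1-D was far below the rest, GFP-D was slightly below the lowest proliferating library, and CIC-D and 7 lay within the proliferating range. The log2 difference of Hk2 was -0.76 (SE 0.36, limma adjusted p = 0.13). With construct name as a term, which pairs the libraries of 1 name across states, it was -1.14 and called (adjusted p = 0.0431). Libraries 7 and TRC have no partner of the same name, so that estimate rests on the FUBP1, CIC and GFP pairs alone. Gpi1, glucose-6-phosphate isomerase, ranged over 227 to 1223 FPKM, with library 7 highest and FUBP1-D lowest.

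Of the phosphofructokinases, which catalyse the committed step, the muscle-type subunit gene Pfkm (chromosome 15, 97923019 to 97962878, mm9) rose. Pfkm had 109 (FUBP1-D), 107 (CIC-D), 78.0 (7) and 97.2 FPKM (GFP-D) in differentiating cells, against 35.002 (FUBP1), 27.5 (CIC), 35.3 (TRC) and 43.3 FPKM (GFP) in proliferating cells. All 4 differentiating libraries lay above all 4 proliferating ones, with a log2 difference of 1.45 (SE 0.20, limma adjusted p = 0.0022). The liver-type Pfkl averaged 44.3 ± 13.1 FPKM in differentiating cells and 51.9 ± 32.1 FPKM in proliferating cells, and the platelet-type Pfkp 12.5 ± 7.09 FPKM in differentiating cells and 20.4 ± 13.3 FPKM in proliferating cells, and neither was called (adjusted p = 0.946 and 0.362). With construct name as a term, which leaves libraries 7 and TRC out of the state difference, Pfkp was called lower (-1.18, adjusted p = 0.0444). Pfkfb3, which makes the phosphofructokinase activator fructose 2,6-bisphosphate, ranged over 10.02 to 88.5 FPKM and was highest in the proliferating CIC library. Per length, Pfkm was the highest of the 3 subunits in all 4 differentiating libraries, whereas Pfkl was highest in TRC, FUBP1 and GFP and Pfkp in CIC.

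The abundant enzymes from aldolase to enolase averaged less in differentiating cells, but only Pgk1 passed the test. Pgk1 (chromosome X, 103382462 to 103399038), phosphoglycerate kinase, had 248 (FUBP1-D), 348 (CIC-D), 540.4 (7) and 315 FPKM (GFP-D) in differentiating cells, against 642 (FUBP1), 417 (CIC), 742 (TRC) and 730.1 FPKM (GFP) in proliferating cells. The groups overlapped, because library 7 lay above the CIC library, and the log2 difference was -0.82 (SE 0.25, limma adjusted p = 0.034). The call was lost without TRC, FUBP1, GFP, GFP-D or FUBP1-D, each left out in turn (adjusted p from 0.0562 to 0.143), and with quantile normalization the difference was -0.19 (adjusted p = 0.603). Leaving out 1 library of a targeted gene also takes its partner out of the state difference. The fits without FUBP1 and without FUBP1-D gave the same -0.64 and are thus 1 check. Gapdh, the dehydrogenase often used as a housekeeping reference, had 455 (FUBP1-D), 567 (CIC-D), 903 (7) and 444 FPKM (GFP-D) in differentiating cells, against 1104 (FUBP1), 656 (CIC), 1307 (TRC) and 1029 FPKM (GFP) in proliferating cells. Its log2 difference of -0.81 (SE 0.28, limma adjusted p = 0.055) just missed the threshold, passed it with scaling by the median of ratios (adjusted p = 0.033) or without library 7 (0.0393), and was 0.036 with quantile normalization. Tpi1 (-0.82, adjusted p = 0.0718) and Pgam1 (-0.98, adjusted p = 0.0703) likewise had negative differences that missed the threshold. For Tpi1, Gapdh, Pgam1 and Pgk1 alike, TRC was the highest and CIC the lowest proliferating library, and library 7 was the highest differentiating library for all 4 genes. Summed over 9 abundant enzymes (Gpi1, Aldoa, Tpi1, Gapdh, Pgk1, Pgam1, Eno1, Pkm and Ldha), the level was 2564 (FUBP1-D), 3770.5 (CIC-D), 5583 (7) and 3131 FPKM (GFP-D) in differentiating cells, against 6945 (FUBP1), 3852.5 (CIC), 7806 (TRC) and 6909 FPKM (GFP) in proliferating cells. The sum in library 7 exceeded that in the CIC library. These genes have many near-identical processed copies in the mouse genome, so reads may be split between a gene and its copies and their levels are uncertain.

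No change between states was called in the 4 genes of aldolase and enolase. Aldoa ranged over 431 to 1159.6 FPKM and Eno1 over 176 to 981 FPKM, with no call (adjusted p = 0.341 and 0.329). Aldoc, the brain aldolase typical of astrocytes, had 126 (FUBP1-D), 26.8 (CIC-D), 57.1 (7) and 8.31 FPKM (GFP-D) in differentiating cells, against 47.6 (FUBP1), 54.5 (CIC), 28.0 (TRC) and 8.06 FPKM (GFP) in proliferating cells. Both GFP-named libraries were the lowest of their state, and FUBP1-D was highest. Eno2, the enolase of neurons, had 15.3 (FUBP1-D), 98.2 (CIC-D), 65.5 (7) and 48.2 FPKM (GFP-D) in differentiating cells, against 13.5 (FUBP1), 69.2 (CIC), 16.4 (TRC) and 33.8 FPKM (GFP) in proliferating cells. It was lowest in the FUBP1-labelled library of each state and highest in the CIC-labelled one. Its state difference was 0.78 (SE 0.29, limma adjusted p = 0.0705).

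At the last steps of the pathway Pkm and Ldha fell and Ldhb rose. Pkm (chromosome 9, 59504174 to 59527182), pyruvate kinase, had 369.5 (FUBP1-D), 428 (CIC-D), 473 (7) and 444 FPKM (GFP-D) in differentiating cells, against 1118 (FUBP1), 918 (CIC), 1369 (TRC) and 1068 FPKM (GFP) in proliferating cells. Every differentiating library was below every proliferating one, and Pkm fell by 1.37 in log2(FPKM + 1), with an SE of 0.17 and a limma adjusted p of 0.00168. With quantile normalization this became -0.59 (adjusted p = 0.0528). The table holds 1 value for the gene, so its M1 and M2 splice forms were not analysed here. Ldha (chromosome 7, 54101173 to 54110997), the lactate dehydrogenase subunit that favours making lactate, had 138 (FUBP1-D), 146 (CIC-D), 307 (7) and 126 FPKM (GFP-D) in differentiating cells, against 957 (FUBP1), 318 (CIC), 921 (TRC) and 700.4 FPKM (GFP) in proliferating cells. The groups did not overlap, although library 7 (307 FPKM) came close to CIC (318 FPKM), and the log2 difference was -1.99 (SE 0.35, limma adjusted p = 0.00552). Ldhb (chromosome 6, 142438768 to 142456463), the subunit that favours turning lactate back into pyruvate, had 157 (FUBP1-D), 221 (CIC-D), 116 (7) and 215 FPKM (GFP-D) in differentiating cells, against 60.8 (FUBP1), 80.4 (CIC), 69.2 (TRC) and 74.0 FPKM (GFP) in proliferating cells. It moved the other way, again without overlap, by 1.26 (SE 0.22, limma adjusted p = 0.00478).

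Of the 3 pyruvate dehydrogenase kinases among the 35 genes, which switch off the entry of pyruvate into mitochondrial oxidation, Pdk2 and Pdk4 rose. Pdk3, a kinase of this family outside the 35 genes, fell (7.57 ± 2.37 FPKM in differentiating and 12.5 ± 2.34 FPKM in proliferating cells). Its log2 difference was -0.68 (SE 0.23, limma adjusted p = 0.048), close to the threshold, and Pdk3 was not refitted under the alternatives. Pdk2 (chromosome 11, 94887571 to 94902685) had 37.6 (FUBP1-D), 59.9 (CIC-D), 52.8 (7) and 60.3 FPKM (GFP-D) in differentiating cells, against 4.88 (FUBP1), 8.03 (CIC), 6.20 (TRC) and 25.0 FPKM (GFP) in proliferating cells. GFP stood apart from the other 3 proliferating libraries but below every differentiating one, and the log2 difference was 2.40 (SE 0.39, limma adjusted p = 0.00388). Pdk4 (chromosome 6, 5433350 to 5446278), a kinase induced by fasting, had 7.58 (FUBP1-D), 0.0771 (CIC-D), 30.4 (7) and 12.2 FPKM (GFP-D) in differentiating cells, against 0.215 (FUBP1), 0 (CIC), 0.363 (TRC) and 2.15 FPKM (GFP) in proliferating cells. The differentiating CIC-D library did not share the increase and lay below TRC, FUBP1 and GFP, and the CIC library was listed at 0. The log2 difference of Pdk4 was 2.38 (SE 0.61, limma adjusted p = 0.0194), and the call was lost without FUBP1 or FUBP1-D (adjusted p = 0.0748 and 0.0752). These 2 fits are 1 check, since both leave the FUBP1-labelled pair out of the state difference and gave the same 2.235. With a pseudocount of 5 the difference was 1.32. Pdk1, a classical HIF target, averaged 10.9 ± 5.63 FPKM in differentiating cells and 6.86 ± 4.26 FPKM in proliferating cells and was not called (adjusted p = 0.15).

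Of the 3 carriers of glucose and lactate in the plasma membrane, Slc16a1 and Slc2a1 rose. Slc16a1 (chromosome 3, 104442590 to 104462385), the lactate and pyruvate carrier MCT1, had 198 (FUBP1-D), 202 (CIC-D), 149.6 (7) and 176 FPKM (GFP-D) in differentiating cells, against 62.2 (FUBP1), 36.3 (CIC), 59.8 (TRC) and 33.9 FPKM (GFP) in proliferating cells. The groups did not overlap, and the log2 difference of 1.94 (SE 0.23, limma adjusted p = 0.00147) had the smallest adjusted p of the 35 genes. Slc2a1 (chromosome 4, 118781349 to 118809934), the glucose carrier GLUT1, had 82.5 (FUBP1-D), 149 (CIC-D), 116 (7) and 175 FPKM (GFP-D) in differentiating cells, against 58.3 (FUBP1), 54.2 (CIC), 72.9 (TRC) and 118 FPKM (GFP) in proliferating cells. Here GFP overlapped the differentiating libraries. The log2 difference was 0.79 (SE 0.25, limma adjusted p = 0.0427). The call was lost without TRC, FUBP1, CIC, GFP-D, CIC-D or FUBP1-D, each left out in turn (log2 difference 0.57 to 0.89, adjusted p from 0.0859 to 0.143). These fits are not all separate checks. The difference was 0.57 without CIC and without CIC-D, and 0.89 without FUBP1 and without FUBP1-D, because the partner library drops out of it too. Slc16a3, the lactate exporter MCT4, ranged over 0.446 to 9.18 FPKM and was not called (adjusted p = 0.699).

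None of the 4 oxygen-sensing genes changed by the test. Hif1a (chromosome 12, 75008853 to 75048517), the main HIF alpha subunit, had 67.9 (FUBP1-D), 49.5 (CIC-D), 54.5 (7) and 76.2 FPKM (GFP-D) in differentiating cells, against 81.8 (FUBP1), 206 (CIC), 85.5 (TRC) and 82.1 FPKM (GFP) in proliferating cells. All differentiating libraries lay below all proliferating ones, with the CIC library far above the rest, and the log2 difference was -0.76 (SE 0.31, limma adjusted p = 0.0896). Fitted with 6 group means, the adjusted p was 0.0375. Epas1, which encodes HIF-2 alpha, ranged over 0.979 to 5.43 FPKM and lay far below Hif1a per length in every library. Egln1, the main oxygen-sensing hydroxylase, ranged over 23.9 to 48.1 FPKM. Egln3, a hydroxylase that HIF itself induces, had 15.0 (FUBP1-D), 4.27 (CIC-D), 16.8 (7) and 47.6 FPKM (GFP-D) in differentiating cells, against 10.5 (FUBP1), 4.09 (CIC), 19.1 (TRC) and 45.3 FPKM (GFP) in proliferating cells. The libraries kept the same order in both states, with the GFP-named one highest, the other NT library next, then the FUBP1-labelled and last the CIC-labelled one.

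Of the 7 other HIF targets only Ndrg1 rose. Ndrg1 (chromosome 15, 66760879 to 66801203), a differentiation and stress gene, had 19.1 (FUBP1-D), 90.3 (CIC-D), 125 (7) and 69.5 FPKM (GFP-D) in differentiating cells, against 7.24 (FUBP1), 22.8 (CIC), 5.28 (TRC) and 21.5 FPKM (GFP) in proliferating cells. FUBP1-D overlapped the proliferating range, and the log2 difference was 2.30 (SE 0.48, limma adjusted p = 0.00938). P4ha1, a collagen prolyl hydroxylase subunit, averaged 62.0 ± 19.7 FPKM in differentiating cells and 37.4 ± 6.20 FPKM in proliferating cells (log2 difference 0.67, SE 0.23, limma adjusted p = 0.0519), and passed with quantile normalization, without GFP-D, and without both GFP-named libraries. Vegfa, the vascular growth factor, had 27.1 (FUBP1-D), 144 (CIC-D), 149 (7) and 92.0 FPKM (GFP-D) in differentiating cells, against 39.5 (FUBP1), 150.2 (CIC), 52.1 (TRC) and 160.1 FPKM (GFP) in proliferating cells. FUBP1-labelled libraries were the lowest of their state. Bnip3, a mitophagy receptor, ranged over 25.9 to 190.5 FPKM and was highest in 7 and GFP. Adm, the peptide adrenomedullin, ranged over 34.9 to 225 FPKM with CIC-D highest, and Ankrd37 over 0.509 to 6.28 FPKM with TRC highest. Bhlhe40, a transcriptional repressor, was the steadiest of the 35 genes, at 26.2 to 44.8 FPKM in all 8 libraries.

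**Figure D3:**
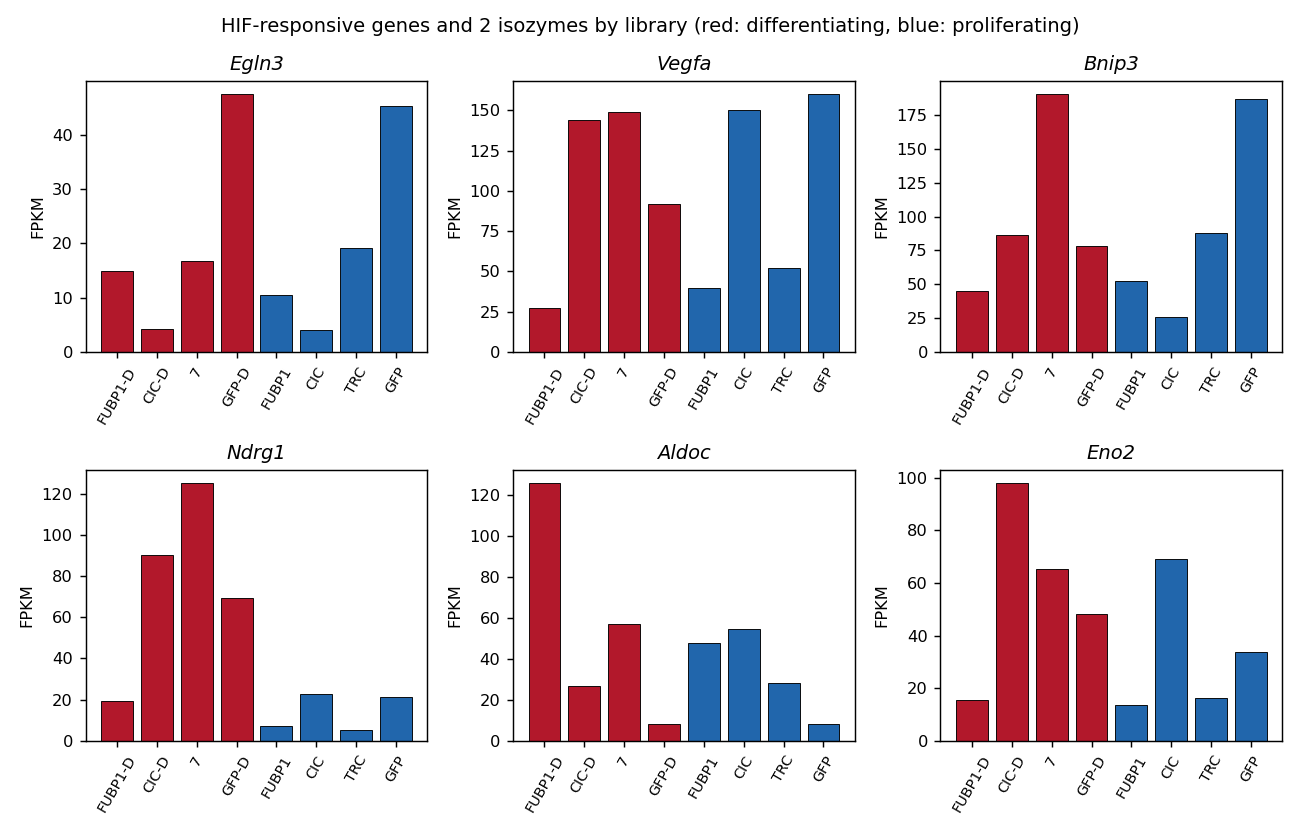
FPKM in each library for 4 HIF-responsive genes (Egln3, Vegfa, Bnip3 and Ndrg1) and for the isozymes Aldoc and Eno2, with differentiating libraries in red and proliferating libraries in blue; each bar is 1 library, without an error. Egln3 is at 47.6 and 45.3 FPKM in the 2 GFP-named libraries and at 4.27 and 4.09 FPKM in the 2 CIC-labelled ones.

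The balance within pairs of related genes was compared over the 8 libraries as the log2 ratio of FPKM + 1, for 11 pairs. The ratio of Ldhb to Ldha was 1.14 (FUBP1-D), 1.51 (CIC-D), 0.376 (7) and 1.71 (GFP-D) in differentiating cells, against 0.0635 (FUBP1), 0.253 (CIC), 0.0752 (TRC) and 0.106 (GFP) in proliferating cells. Ldhb thus exceeded Ldha in 3 of the 4 differentiating libraries and in none of the proliferating ones. The log2 ratio averaged 0.03 ± 0.99 in differentiating and -3.22 ± 0.89 in proliferating cells (SD, n = 4 each), a difference of 3.25. The ratio of Slc16a3 to Slc16a1 shifted the other way, with log2 ratios of -5.32 ± 1.40 in differentiating and -3.08 ± 0.88 in proliferating cells. These were the 2 of 11 pairs without overlap between states. Each had an exact two-sided permutation p of 0.0286, the smallest that 4 against 4 libraries can give, and 0.126 after Benjamini-Hochberg adjustment over the 11 pairs, so neither passed. Ldhb and Ldha each lay apart between states in opposite directions, so their ratio had to do so as well. The p of that pair thus adds nothing to the results of the single genes. In the other pair Slc16a1 alone lay apart between states, and Slc16a3 overlapped. The log2 ratio of Pfkm to Pfkl averaged 1.16 ± 0.61 in differentiating and -0.26 ± 1.05 in proliferating cells. That of Pdk2 to Pdk1 averaged 2.25 ± 0.59 in differentiating and 0.56 ± 1.08 in proliferating cells, and that of Epas1 to Hif1a -4.11 ± 0.61 in differentiating and -5.39 ± 0.92 in proliferating cells. These 3 pairs overlapped between states, and each had an exact permutation p of 0.0571. The number of pairs without overlap was 4 without library 7 and 4 without the CIC library. Leaving out a library can only keep or raise this number, so these counts add no evidence for a shift.

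**Figure D4:**
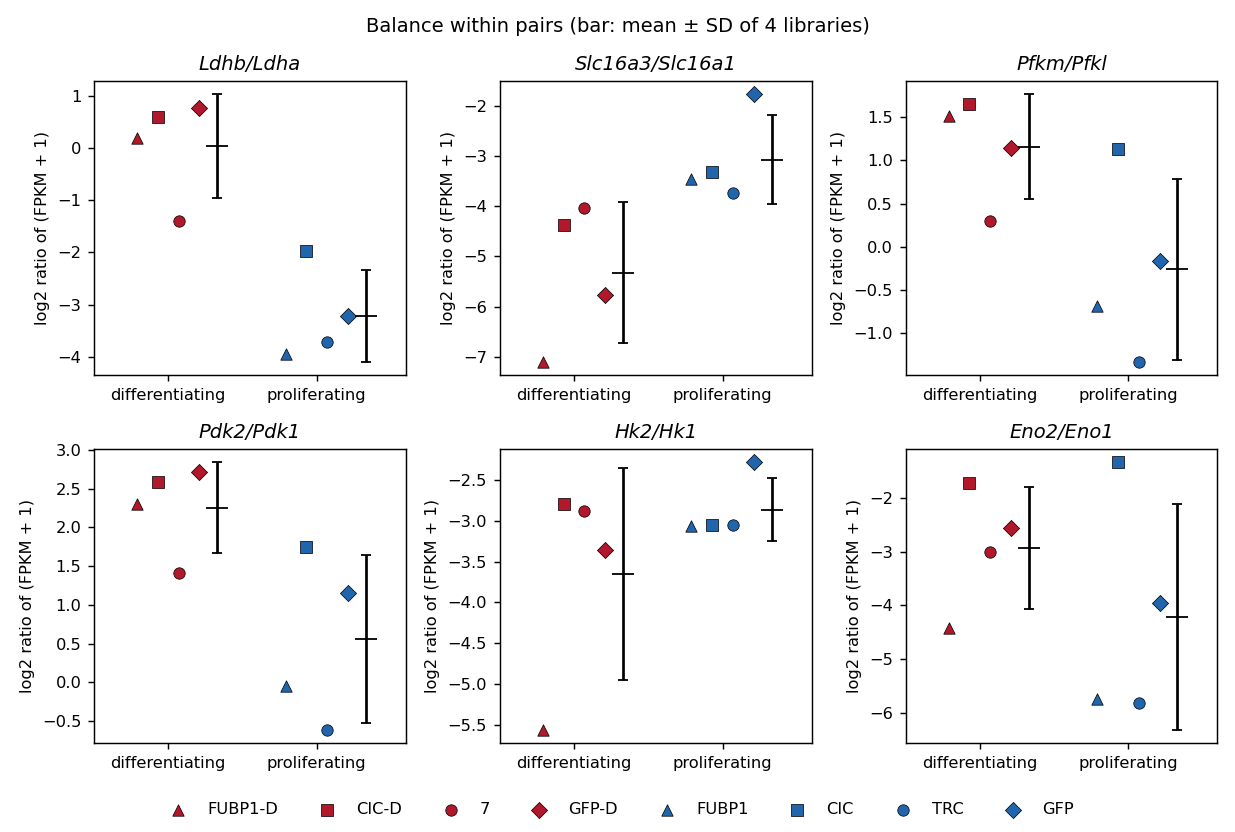
Log2 ratio of (FPKM + 1) within 6 of the 11 gene pairs, 1 point per library (triangles FUBP1-labelled, squares CIC-labelled, circles and diamonds NT), with the mean ± SD of the 4 libraries of each state. The states are apart for Ldhb/Ldha and Slc16a3/Slc16a1, and library 7 and the CIC library are the ones nearest the other state for Ldhb/Ldha.

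Neighbouring pathways were described from lists of related genes. Of 16 genes of pyruvate and lactate handling, 15 were tested, of which 2 rose and 6 fell. Those that rose were Pcx, pyruvate carboxylase, which in brain is typical of astrocytes (10.9 ± 1.55 FPKM in differentiating and 1.27 ± 0.553 FPKM in proliferating cells, SD, n = 4 each, log2 difference 2.41, SE 0.24, limma adjusted p = 0.000896), and Pdp1, the phosphatase that reactivates pyruvate dehydrogenase (18.2 ± 3.49 FPKM in differentiating and 3.46 ± 1.72 FPKM in proliferating cells, log2 difference 2.16, SE 0.24, limma adjusted p = 0.00118). Those that fell furthest were Me2, the mitochondrial malic enzyme (8.50 ± 2.54 FPKM in differentiating and 34.96 ± 25.9 FPKM in proliferating cells), Pdhb, a subunit of pyruvate dehydrogenase (55.8 ± 5.88 FPKM in differentiating and 144 ± 22.7 FPKM in proliferating cells), Dlat, its acetyltransferase subunit (16.4 ± 1.78 FPKM in differentiating and 40.2 ± 8.86 FPKM in proliferating cells) and Pdhx, a binding component of the complex (13.0 ± 4.16 FPKM in differentiating and 24.8 ± 8.24 FPKM in proliferating cells). Of the 16 tricarboxylic acid cycle genes 6 fell and none rose, led by Mdh2 (156 ± 22.0 FPKM in differentiating and 367 ± 72.3 FPKM in proliferating cells) and Sdhd (87.4 ± 14.6 FPKM in differentiating and 186 ± 27.0 FPKM in proliferating cells). In the pentose phosphate and serine branches 6 of 12 fell and none rose, with the serine hydroxymethyltransferases Shmt2 (28.9 ± 6.75 FPKM in differentiating and 209 ± 156 FPKM in proliferating cells) and Shmt1 furthest. Of 15 tested genes of sugar transport and glycogen 4 rose and 1 fell, with Pygb, brain glycogen phosphorylase, at 126 ± 15.5 FPKM in differentiating and 17.2 ± 4.28 FPKM in proliferating cells (log2 difference 2.82, SE 0.21, limma adjusted p = 0.000584). The genes of these lists were tested in the same fit, in which 21.2% of all rows were called higher and 17.7% lower.

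Glycolytic isozymes outside the 35 genes rose in 4 and fell in 1 of 9 tested. Eno3, the muscle enolase, stood at 12.9 ± 2.56 FPKM in differentiating and 4.61 ± 2.64 FPKM in proliferating cells (SD, n = 4 each) and Pfkfb2 at 10.6 ± 1.70 FPKM in differentiating and 4.70 ± 0.411 FPKM in proliferating cells. Further HIF targets rose in 6 and fell in 4 of 26, among them the demethylase Kdm3a (51.4 ± 7.96 FPKM in differentiating and 22.8 ± 1.29 FPKM in proliferating cells, log2 difference 1.13, SE 0.16, limma adjusted p = 0.00264) and Insig2, a brake on cholesterol synthesis (58.8 ± 24.6 FPKM in differentiating and 21.1 ± 10.6 FPKM in proliferating cells), which rose, and the growth factor-binding protein Igfbp3 (271 ± 145 FPKM in differentiating and 1067 ± 472 FPKM in proliferating cells) and the cytokine Mif (587 ± 160.0 FPKM in differentiating and 1149.9 ± 262 FPKM in proliferating cells), which fell. Of 11 tested HIF regulators, the dimerization partners Arnt (19.9 ± 2.68 FPKM in differentiating and 11.8 ± 1.00 FPKM in proliferating cells) and Arnt2 (74.2 ± 6.25 FPKM in differentiating and 38.8 ± 10.8 FPKM in proliferating cells) rose, and the ubiquitin ligase subunits Rbx1, Tceb1 and Tceb2 fell. Over all rows 21.2% rose and 17.7% fell. The counts of further HIF targets lay near these shares, and no list was tested against them.

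The targeted genes were checked first. Fubp1 was at 21.6 (FUBP1-D) and 34.8 FPKM (FUBP1) in the libraries labelled FUBP1, against 24.8 (7), 25.4 (GFP-D), 50.2 (TRC) and 12.4 FPKM (GFP) in the NT libraries, so Fubp1 was below both NT libraries in the differentiating state and between them in the proliferating state, against its label there. Cic was at 25.6 (CIC-D) and 13.3 FPKM (CIC) in the libraries labelled CIC, against 42.0 (7), 35.3 (GFP-D), 39.4 (TRC) and 33.8 FPKM (GFP) in the NT libraries.

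With the FUBP1 label, limma called none of the 35 genes (0 of 11968 rows, 0%), while 8 of the 35 and 2.14% of all rows had an unadjusted p under 0.05. The estimate was above 0 in 7 of the 35 genes and below 0 in 28, while it was above 0 in 53.6% of all rows. Its median was -0.46, beside 0.02 over all rows. The NT libraries it was measured against include library 7, which was above GFP-D in 27 of the 35 genes. In both libraries labelled FUBP1, 5 genes lay below all 4 NT libraries (Egln3, Vegfa, Pdk1, Eno2 and Bnip3, and 1.52% of all rows) and none above all of them (2.15% of all rows). Vegfa had 27.1 (FUBP1-D) and 39.5 FPKM (FUBP1), against 149 (7), 92.0 (GFP-D), 52.1 (TRC) and 160.1 FPKM (GFP) in NT libraries, a log2 difference of -1.63 (SE 0.45, limma adjusted p = 0.999). Bnip3 had 45.1 and 52.1 FPKM in FUBP1-D and FUBP1, against 78.5 to 190.5 FPKM in the NT libraries (log2 difference -1.35, SE 0.54, limma adjusted p = 0.999). Hk2 (log2 difference -1.57, SE 0.44, limma adjusted p = 0.999) rested mainly on FUBP1-D, at 0.513 FPKM. Aldoc had the largest positive difference, 2.01 (SE 0.82, limma adjusted p = 0.999), but its NT libraries themselves spread from 8.06 to 57.1 FPKM. In no alternative was any of the 35 genes called with this label.

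State by state, without a test, FUBP1-D lay more than 1 log2 unit below both NT libraries of its state in 5 of the 35 genes (Hk2, Ndrg1, Vegfa, Slc16a3 and Eno2), where 0.76% of all rows did. It lay above both by that margin in Aldoc alone (1.24% of all rows). The proliferating FUBP1 library lay beyond that margin in no gene in either direction (0.994% of all rows above and 0.125% below). Without a margin, 19 of the 35 genes were below both NT libraries in FUBP1-D (28.3% of all rows) and 19 in FUBP1 (27.7%), while 4 were above both in FUBP1-D (34.9%) and 6 in FUBP1 (26.7%). FUBP1-D was the lowest differentiating library in 15 of the 35 genes, and in 23% of all rows. A change between states in the difference of the FUBP1 label from NT was called for no gene (limma on group means, 0 of 11968 rows, 0.827% at an unadjusted p under 0.05, and 0 of the 35 genes at that level). That fit has 2 residual degrees of freedom, which come from the NT libraries, and assumes that the single targeted libraries vary as those do.

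**Figure D5:**
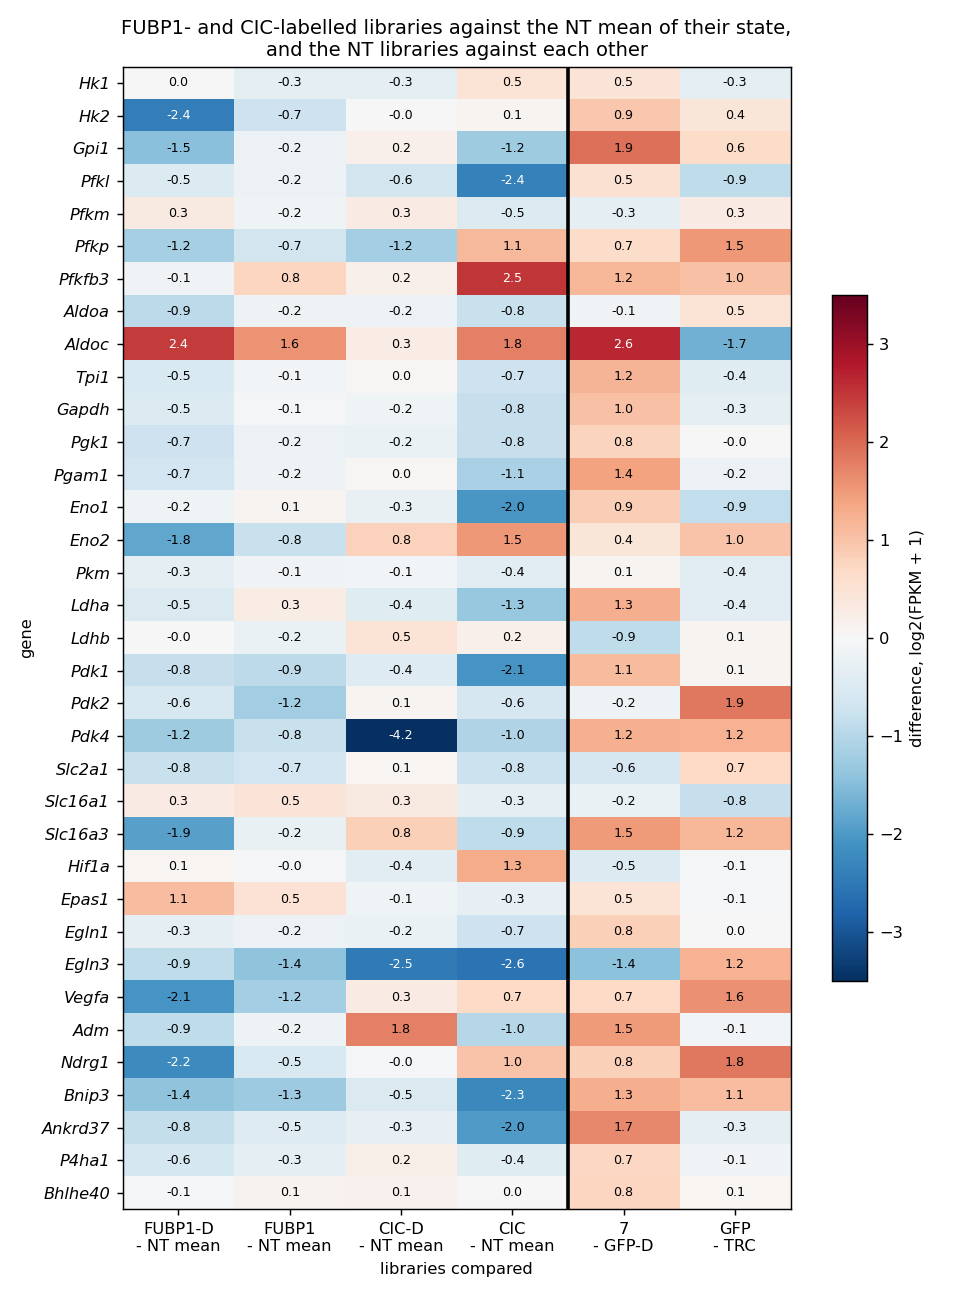
Differences on the log2(FPKM + 1) scale for the 35 genes: each FUBP1- or CIC-labelled library minus the mean of the 2 NT libraries of its state (left of the line), and, for scale, the 2 NT libraries of each state against each other (right of the line). Most genes are below 0 in FUBP1-D (29 of 35, median -0.62), FUBP1 (28 of 35, median -0.20) and CIC (24 of 35, median -0.72). CIC-D is more even (19 of 35, median -0.05), and the column of 7 minus GFP-D is mostly red, with a median of 0.78. Over all rows the medians were 0.03 (FUBP1-D), 0.01 (FUBP1), -0.08 (CIC), -0.01 (CIC-D) and 0.01 (7 minus GFP-D). The share of all rows below 0 was not counted.

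With the CIC label, none of the 35 genes was called either (limma, 0.109% of all rows called, with 7 of the 35 genes and 11.4% of all rows at an unadjusted p under 0.05). The estimate was above 0 in 12 of the 35 genes, and in 45.6% of all rows. Egln3 came nearest, at -2.53 (SE 0.47, limma adjusted p = 0.143), with 4.27 (CIC-D) and 4.09 FPKM (CIC), against 16.8 (7), 47.6 (GFP-D), 19.1 (TRC) and 45.3 FPKM (GFP) in NT libraries. Pfkl, Pdk4 and Aldoa also lay below all 4 NT libraries in both libraries labelled CIC (4 of 35 genes, and 7.09% of all rows), and Eno2 alone lay above all of them (4.19% of all rows). Pfkl had 33.3 (CIC-D) and 11.98 FPKM (CIC), against 43.4 to 90.1 FPKM in the NT libraries (log2 difference -1.50, SE 0.46, limma adjusted p = 0.329). Eno2 had 98.2 (CIC-D) and 69.2 FPKM (CIC), against 16.4 to 65.5 FPKM in the NT libraries (log2 difference 1.15, SE 0.36, limma adjusted p = 0.332). Pdk4 was at 0.0771 FPKM in CIC-D and listed at 0 in CIC, against 30.4 (7), 12.2 (GFP-D), 0.363 (TRC) and 2.15 FPKM (GFP) in NT libraries.

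The proliferating CIC library differed from both NT libraries of its state in more of the 35 genes than any other targeted library did, as it did over all rows. It lay more than 1 log2 unit below both in 8 genes (Pfkl, Pgam1, Eno1, Ldha, Pdk1, Egln3, Bnip3 and Ankrd37, 5.65% of all rows) and above both in 3 (Hif1a, Pfkfb3 and Eno2, 3.63%). Hif1a was at 206 FPKM in CIC, against 85.5 (TRC) and 82.1 FPKM (GFP), and Pfkfb3 at 88.5 FPKM, against 10.02 (TRC) and 21.4 FPKM (GFP). CIC was the lowest of the 4 proliferating libraries in 22 of the 35 genes, where 37.1% of all rows had it lowest. In CIC-D only Egln3 and Pdk4 lay below both NT libraries by that margin (1.76% of all rows) and only Adm above (1.07%). Without a margin, 22 genes were below both NT libraries in CIC (39.9% of all rows) and 8 above (31.4%), while 8 were below both in CIC-D (34.1%) and 6 above (30.8%). Adm was at 225 FPKM in CIC-D, against 111 (7) and 38.6 FPKM (GFP-D). A change between states in the difference of the CIC label from NT was called for no gene (limma on group means, 0 of 11968 rows, with 4.28% of all rows and 5 of the 35 genes, Pfkl, Pfkfb3, Hif1a, Pdk4 and Adm, at an unadjusted p under 0.05).

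The NT libraries themselves differed in these genes. Library 7 was the highest of the 4 differentiating libraries in 22 of the 35 genes, where 22.4% of all rows had it highest, and the median of 7 minus GFP-D was 0.78 on the log2 scale, against 0.01 over all rows. Gpi1 reached 1223 FPKM in 7, against 323 FPKM in GFP-D, and Bnip3 190.5 FPKM, against 78.5 FPKM. In the proliferating state GFP was highest in 13 of the 35 genes (29.7% of all rows), including Vegfa, Bnip3, Egln3, Pdk2 and Slc2a1, while TRC was highest in 10 (24.2%), including Gapdh, Pkm, Eno1, Pgk1 and Tpi1. Both GFP-named libraries lay above the 2 other NT libraries in Egln3, Slc2a1 and Aldoa (3 of 35 genes, and 11.3% of all rows), and below them in Hk1, Pfkl, Aldoc and Adm (4 of 35, and 12.6%). The median of GFP minus TRC was 0.06, beside -0.02 over all rows. The spread over the 8 libraries, as the SD of log2(FPKM + 1), had a median of 0.84 for the 35 genes and 0.49 over all rows. It ran from 0.21 (Bhlhe40) to 1.92 (Pdk4).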

How the data were processed

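RNA from 8 libraries was sequenced. The authors deposited 1 table of FPKM values, 1 per gene row and library, with loci. Reads were on build mm9, per the submitters' processing notes, which list TopHat2 2.0.11, Cufflinks 2.1.1, bcl2fastq 2.17 and cutadapt. Settings and strandedness: not given in the sources used here. Depth is unknown. Libraries were grouped by the treatment label.

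FPKM was used as deposited, as log2(FPKM + 1), for the 11968 of 20793 rows with at least 1 FPKM in 2 libraries, which understates changes of low genes. limma 3.58.1 (R 4.3.3) fitted state plus targeted gene over 8 libraries (4 residual degrees of freedom), and 6 group means (2) for differences between states, with trend, two-sided, adjusted over all rows, threshold 0.05. The fit was tested on simulated data. Pairs used an exact permutation test (scipy 1.17.1). Members and lists were chosen with earlier results of these data known. All 35 members are named. Of the called genes of other lists only some are named, at most 4 per direction, and Pdk3 besides. Alternatives were pseudocount, filter, normalization, trend, model and libraries left out.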

Additional observations from a re-analysis of the deposited data

How the results depend on the processing

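Leaving out 1 library at a time gave 5 to 8 higher and 2 to 6 lower calls among the 35 genes between states, and 2477 to 4857 rows called over the whole table. Leaving out FUBP1 or FUBP1-D gave the same differences between states, as did leaving out CIC or CIC-D, so these fits are not all separate checks. Lower calls among the 35 genes numbered 1 with quantile normalization, 6 with the median of ratios and 5 with construct name as a term (Hk2 and Pfkp added). Group means called 2906 rows. Differences between states changed sign with quantile normalization, which sets the distributions of all libraries equal, for Gapdh (0.036), Aldoa (0.53) and Eno1 (0.14), and the cause was not tested. The calls of Pdk4, Pgk1 and Slc2a1 were lost without the filter (adjusted p = 0.0501, 0.0732 and 0.0729), those of Pgk1 and Slc2a1 with group means (0.0751 and 0.075), those of Pdk4 and Pgk1 without both GFP-named libraries (0.0584 and 0.0884), and that of Slc2a1 with the median of ratios (0.0671). Pfkl turned to -0.067 with the median of ratios and ranged from -0.42 to 0.29 with 1 library left out. Slc16a3 turned to 0.14 without both GFP-named libraries and ranged from -0.87 to 0.25 with 1 library left out. In all, the difference between states changed sign under at least 1 alternative in 15 of the 35 genes, and 0 of them were called at the changed sign under limma. With the CIC label 13 rows were called, 24 and 4 with pseudocounts of 0.5 and 5, 2 without the filter, 3 without both GFP-named libraries and 2 to 18 with 1 library left out, none of them among the 35 genes. Genes of the 35 below both NT libraries numbered 5 in FUBP1-D, 2 in CIC-D, 0 in FUBP1 and 8 in CIC with the margin of 1 log2 unit, and 19, 8, 19 and 22 without it. Those above both numbered 1, 1, 0 and 3 with it, and 4, 6, 6 and 8 without it. Pairs without overlap numbered 2, and 2 to 4 with 1 library left out, where 3 against 4 libraries cannot give a p under 0.05. The pairs with 1 library left out, the single-library counts with the median of ratios and the changes between states under other settings were chosen after seeing the data. Of the printed tests of the 35 genes and of pairs, over all alternatives, 507 values kept their side of the threshold. A further 39 moved above it, 15 moved below it and 10 changed sign. The limma calls lost were those of Pdk4, Pgk1, Pkm and Slc2a1 only. The other values that moved above it were of pairs, none of which was called after adjustment. With 1 library left out, a pair had to stay above it whatever its values. Tested genes outside the 35, Pdk3 among them, were not refitted under the alternatives.

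No paired analysis was possible by replicate number because the labels give none. The library names do pair GFP, FUBP1 and CIC with GFP-D, FUBP1-D and CIC-D, and the fit with construct name as a term called 7 of the 35 genes higher, 5 lower and 3534 rows in all. The differences between states in that fit rest on these pairs alone, because libraries 7 and TRC have no partner. Unknown depth limits what can be said of low genes such as Pdk4, Epas1 and Ankrd37.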
